A study of Mus musculus with 12 samples.

Results

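The 34 genes described here are markers of astrocyte state: 22 genes that are known to rise in reactive astrocytes and 12 that mark the working, homeostatic astrocyte. They were chosen by name from knowledge of astrocytes, but with earlier results of these data known. Shares of called genes set beside those of all tested genes are therefore a description. The members are 34 of the 56980 gene identifiers in the count table, and each was found in it. The filter on low counts kept 33 of them, 21 reactive and all 12 homeostatic, among 19152 tested genes. The counts are from whole hippocampus, sequenced as bulk mRNA in 12 male mice, with 1 library for each mouse identifier. All 12 mice carried AppNL-G-F, a knock-in that replaces the mouse amyloid precursor protein gene by a humanised, mutated form under its own promoter, so that amyloid-β deposits form without overexpression. Of them, 6 had AppNL-G-F alone, 3 at 3 months and 3 at 9 months of age (called App-KI here). The other 6 had AppNL-G-F and a Trem2 KO, likewise 3 at 3 months and 3 at 9 months (called Trem2-KO). The ages were meant to catch the onset and the middle stage of deposition. No mouse without the knock-in is among these samples, so growing older and gaining amyloid cannot be told apart.

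Astrocytes clear glutamate and potassium from the synapse, pass metabolites and ions through gap junctions and line vessels with water channels. In injury, infection and around amyloid plaques they become reactive: they build up intermediate filaments, chiefly GFAP, and express secreted inhibitors, receptors and matrix-binding proteins. A main route to this state runs through cytokines of the interleukin-6 family, whose receptors share the subunit gp130 and act through the kinases JAK and the transcription factor STAT3, with SOCS3 as the feedback inhibitor. TREM2 is a receptor of microglia, not of astrocytes, so the Trem2 KO asks how the astrocyte genes behave when microglia respond poorly to plaques.

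Total counts per library ran from 14627892 to 24594655. Levels are given in CPM, the count divided by a TMM-scaled library size on the usual CPM scale, and 3 counts, the most that a count of 0 allows, came to 0.122 to 0.206 CPM (counting error only). Trem2 ran from 8.05 to 10.4 CPM in App-KI against 1.85 to 2.17 CPM in Trem2-KO at 3 months, and from 49.8 to 55.6 CPM against 3.62 to 3.83 CPM at 9 months. Defining astrocyte genes were present in every library, for example Aldh1l1 at 60.5 CPM or more, and 10 neuronal markers summed to between 8571 and 9831 CPM. Summed levels of 10 choroid plexus and ependyma markers differed widely within groups. They were 68.0 CPM in App-KI 3-month replicate 1, 55.1 CPM in App-KI 9-month replicate 2 and 81.1 CPM in Trem2-KO 9-month replicate 3, against 437 to 3078 CPM in the other libraries. None of these 10 markers was at 0 in any library. In whole tissue, fewer cells of a type and less RNA per cell cannot be told apart.

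Summed markers of other cell types also moved with the groups. The 12 microglial markers summed to 549 to 577 CPM in App-KI at 3 months, against 524 to 547 CPM in the Trem2-KO mice of that age. At 9 months they reached 1497 to 1611 CPM in App-KI and 855 to 920 CPM in Trem2-KO, with all 12 detected in each group. The 12 markers of meningeal and perivascular fibroblasts summed to 206 to 290 CPM over the 9 libraries of the other groups and to 320 to 482 CPM in Trem2-KO at 9 months. The 10 endothelial markers summed to 367 to 464 CPM in the other groups and to 465 to 490 CPM in Trem2-KO at 9 months. The 10 markers of neutrophils and monocytes summed to at most 3.71 CPM in any library, and 3 of them passed the filter on low counts. The part of these cells in the results below was not tested, except where values without a library are given.

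**Figure D1:**
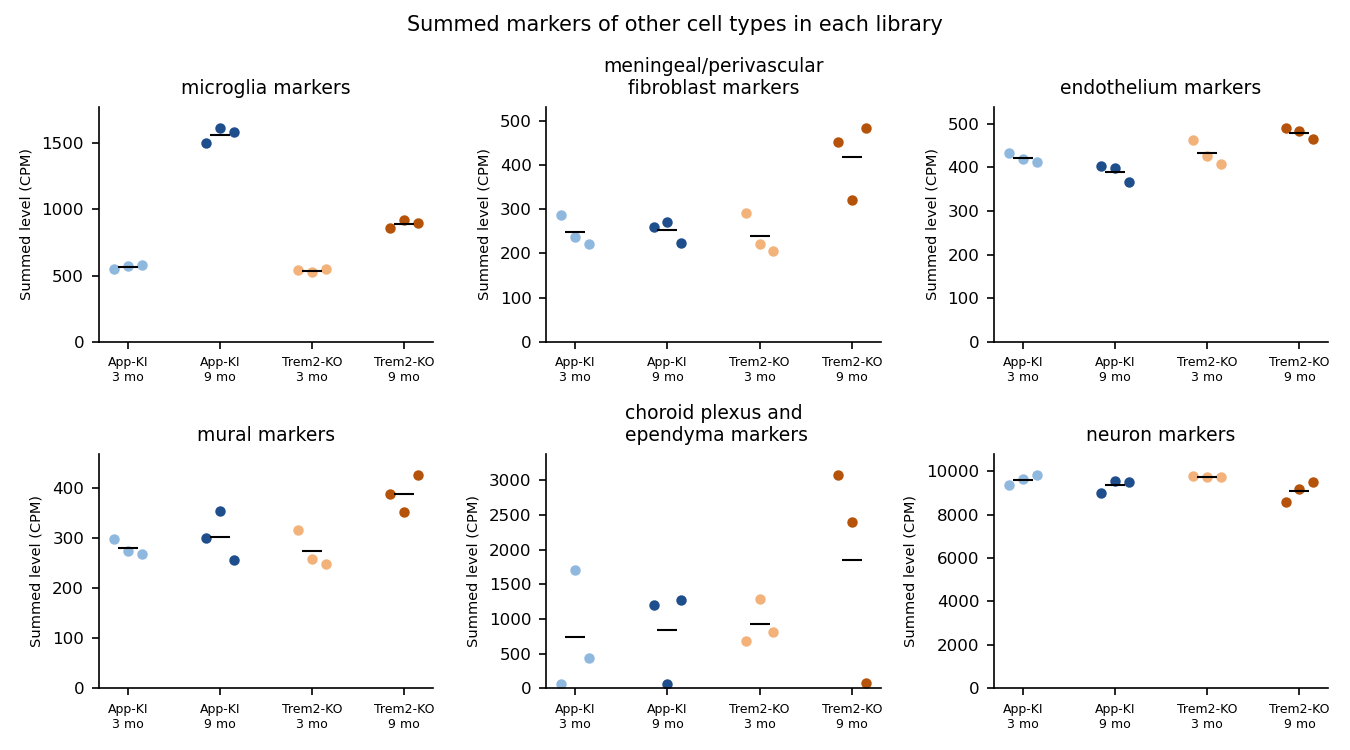
Summed level in CPM (vertical axes, from 0) of markers of 6 other cell types, 1 point per library and a dash for the mean of 3 libraries in each of the 4 groups. Microglial markers reach 1497 CPM or more in App-KI at 9 months, fibroblast markers are highest in Trem2-KO at 9 months, and 1 library in each of 3 groups is low in choroid plexus markers.

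The comparison of 9 with 3 months in App-KI mice asked which astrocyte genes changed as amyloid built up with Trem2 present. Reactive genes rose, led in abundance by the filament gene Gfap, whose level went up 3.95-fold, while no homeostatic gene fell. Of the 21 tested reactive genes 10 rose and 0 fell by edgeR's quasi-likelihood test at a Benjamini-Hochberg adjusted p under 0.05, against 3.95% of all tested genes called higher and 2.71% called lower. In 11 of the 21 every 9-month library lay above every 3-month library, against 11.2% of all tested genes. The median log2 fold change of the 21 was 0.53, against -0.0011 over all tested genes.

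Gfap, the main intermediate filament protein of astrocytes, stood at 525, 464 and 515 CPM in the App-KI libraries at 3 months and at 2045, 2006 and 1893 CPM at 9 months. Every 9-month library was more than 3 times above every 3-month one, and the log2 fold change was 1.98 ± 0.05 (standard error, as for each log2 value below; edgeR adjusted p = 1.11e-15). Vim, the filament protein vimentin that pairs with GFAP and is also made by vessel and meningeal cells, went from 28.5, 25.4 and 24.1 CPM to 42.8, 46.7 and 36.1 CPM. Its groups did not overlap, and it rose by 0.69 ± 0.10.

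Serpina3n, a secreted inhibitor of serine proteases, stood at 42.6, 45.8 and 49.7 CPM at 3 months and 71.8, 79.4 and 72.4 CPM at 9 months. All 9-month libraries were above the others (log2 fold change 0.70 ± 0.07), although reads of the closely related Serpina3 genes may be divided among copies. Ggta1, an enzyme that adds α-linked galactose to glycans, went from 6.65, 4.85 and 3.61 CPM to 10.02, 12.7 and 11.3 CPM, a rise of 1.16 ± 0.19. Aspg, an asparaginase, had 53, 17 and 22 counts at 3 months and 156, 164 and 96 counts at 9 months. In CPM these were 2.16, 0.971 and 1.07 against 8.23, 8.80 and 6.30, and the log2 fold change of 2.43 ± 0.24 was the largest among called members.

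Cd44, the receptor for the matrix sugar hyaluronan, was at 4.73, 3.48 and 4.83 CPM at 3 months and 10.5, 6.92 and 7.74 CPM at 9 months. It rose by 0.94 ± 0.18, with the lowest 9-month library still above the 3-month ones. Microglia and other leukocytes express Cd44 too. All 12 microglial markers were called higher in the same comparison (median log2 fold change 1.58), against 3.95% of all tested genes.

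**Figure D2:**
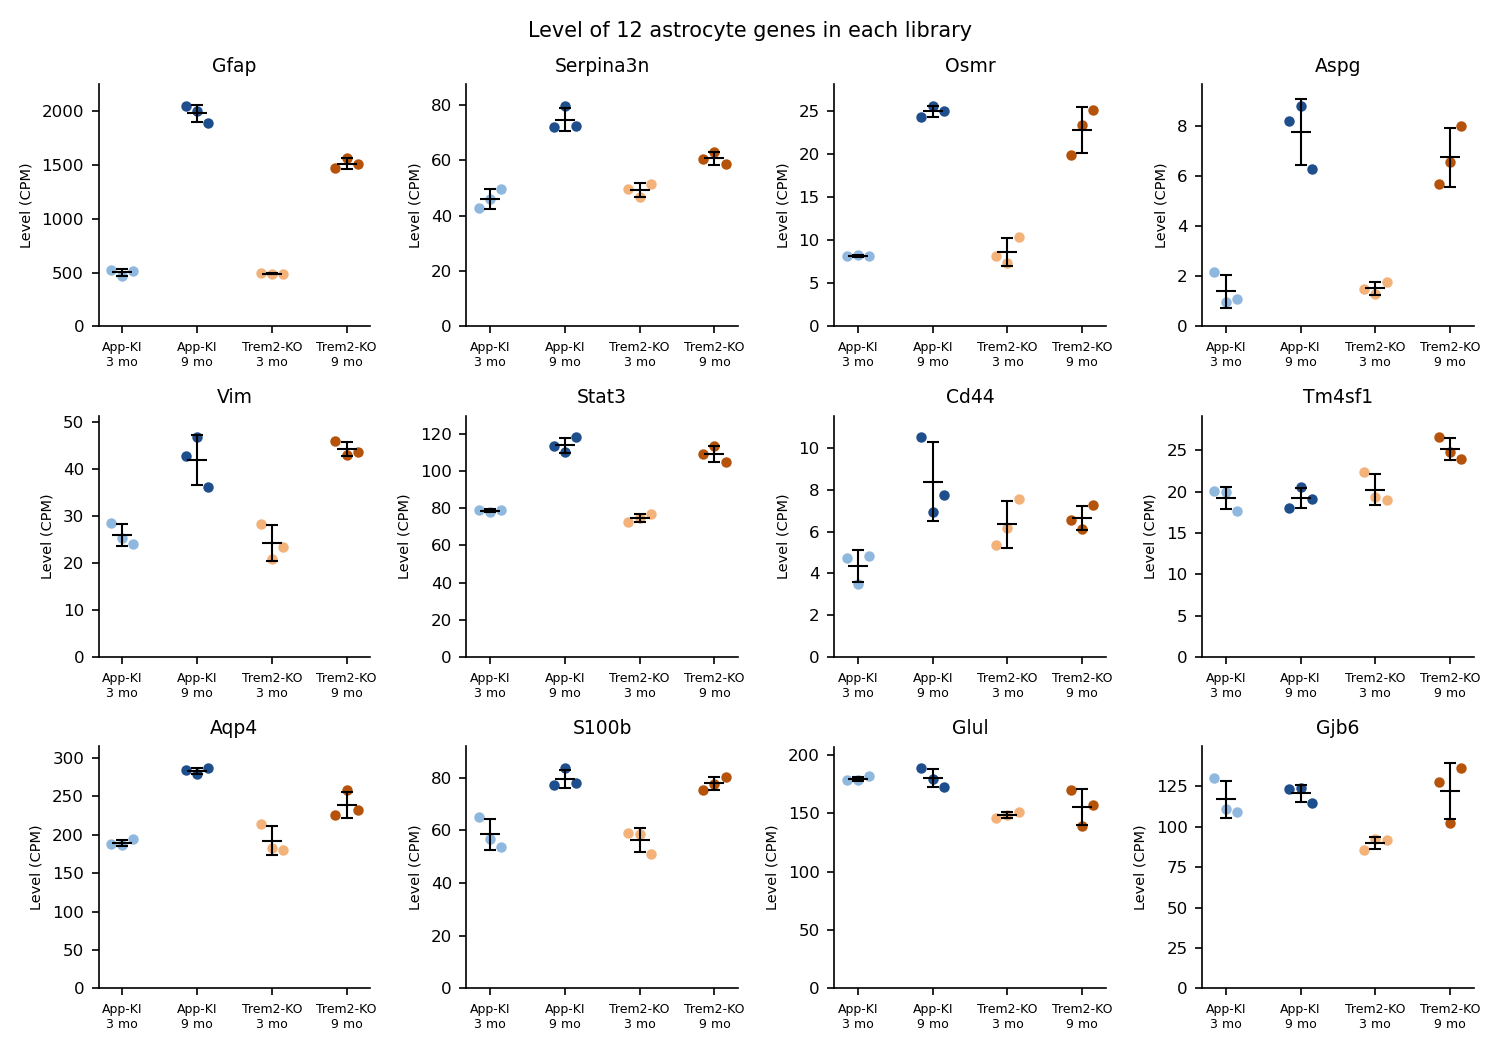
Level in CPM (vertical axes, from 0) of 12 of the genes in each library, with the mean ± SD of 3 libraries per group in black; the 4 groups are App-KI and Trem2-KO at 3 and 9 months. Gfap is at 525 CPM or lower in all 3-month libraries and reaches 1893 to 2045 CPM in App-KI but 1469 to 1563 CPM in Trem2-KO at 9 months.

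Genes of the gp130 and STAT3 route rose in the same comparison. Osmr, the receptor subunit for oncostatin M, stood at 8.15, 8.28 and 8.10 CPM at 3 months and at 24.3, 25.5 and 25.0 CPM at 9 months. The 3 libraries of each age were close together, and the level rose 3.05-fold (log2 fold change 1.61 ± 0.12). Stat3 itself went from 79.2, 77.7 and 78.8 CPM to 114, 110 and 118 CPM, a rise of 0.53 ± 0.05 without overlap. Its exons overlap those of Stat5a on the opposite strand, and the strand setting of the counting is not stated in the labels. The same uncertainty holds for Glul, Aldh1l1, Slc1a2 and S1pr3, whose exons also overlap genes on the opposite strand.

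Socs3, the feedback inhibitor of this route, had 36, 29 and 34 counts at 3 months and 66, 61 and 49 counts at 9 months. In CPM it moved from 1.47, 1.66 and 1.66 to 3.48, 3.27 and 3.21, a rise of 1.06 ± 0.22. Clcf1, a cytokine of the same family whose exons overlap those of another gene on the same strand, rose by 1.31 ± 0.39 on 7 to 11 counts per library at 3 months and 18 to 23 at 9 months. That call was close to the threshold (edgeR adjusted p = 0.047) and was lost in 12 of 19 alternatives, among them DESeq2 (adjusted p = 0.097).

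Beyond the members, 30 other genes of this route were listed and 27 could be tested. In App-KI 6 of the 27 rose with age and 0 fell, against 3.95% of all tested genes called higher. They included Bcl3, a partner of NF-κB proteins (2.37 ± 0.36), Ptpn6, the phosphatase SHP-1 of blood-derived cells and microglia (1.75 ± 0.14), Socs1 (1.32 ± 0.29), the receptor Il6ra (0.49 ± 0.12) and the gp130 gene Il6st. In Trem2-KO 3 of the 27 rose and 0 fell, against 5.68% called higher, among them Ptpn6 (0.90 ± 0.15) and Il6st (0.36 ± 0.07). The ligand genes Il6, Il11 and Cntf had too few counts to test. The difference between genotypes in the age change was called for none of the 27 by edgeR. Of them 4 were at an unadjusted p under 0.05, against 1156 of 19152 tested genes.

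Proximal promoters are shown for 3 of the genes called higher with age in both genotypes, a filament gene, a secreted inhibitor and a receptor, and for the members whose windows held STAT letters. RefSeq windows of 250 bases before a gene's start were used for 29 of the 34 genes. They are from GRCm38.p6, a build other than that of the counts, which the submitters' notes give as GRCm39. Windows on the chromosome that holds Aqp4 were left out for the members but kept in the share over all genes. Each window used was searched on both strands for TTCNNNGAA, the palindrome that STAT proteins bind, and for TGANTCA, the AP-1 letters. The 100 bases before the start of Gfap (chr11:102897201-102897300, minus strand), Serpina3n (chr12:104406608-104406707, plus strand) and Osmr (chr15:6874314-6874413, minus strand) follow, 5′ to 3′ on the gene's strand. Neither motif was found in the 250 bases of these 3 genes, so no base is in capitals.
Gfap: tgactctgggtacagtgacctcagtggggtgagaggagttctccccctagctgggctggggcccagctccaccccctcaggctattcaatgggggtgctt
Serpina3n: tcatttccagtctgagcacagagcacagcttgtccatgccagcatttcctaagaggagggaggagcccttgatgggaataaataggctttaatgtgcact
Osmr: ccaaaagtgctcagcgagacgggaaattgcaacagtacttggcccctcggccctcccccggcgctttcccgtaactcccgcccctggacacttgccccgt

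The STAT letters were found upstream of 3 reactive genes (3 of 21 windows, 14.3%) and 2 homeostatic genes (2 of 12 windows, 16.7%), against 7.02% of 32851 promoter windows of all genes. The stretches with the match in capitals are shown for Socs3 (chr11:117969492-117969540, minus strand), Steap4 (chr5:7960336-7960384, plus strand), Slc1a3 (chr15:8710875-8710923, minus strand) and Aldoc (chr11:78324054-78324143, plus strand). In the Emp1 stretch (chr6:135362766-135362930, plus strand) the capitals mark 2 STAT and 2 AP-1 matches, of which the last pair overlaps. Emp1 and Aldoc each had another window, which held neither motif. AP-1 letters stood in 6.75% of all windows, in 1 of 21 reactive windows (4.76%, Emp1) and in 1 of 12 homeostatic windows (8.33%, Gja1). These matches describe the letters of the window and show no binding.
Socs3: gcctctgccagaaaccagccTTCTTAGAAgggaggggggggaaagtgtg
Steap4: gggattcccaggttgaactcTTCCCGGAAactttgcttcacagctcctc
Slc1a3: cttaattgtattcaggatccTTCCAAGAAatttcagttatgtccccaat
Aldoc: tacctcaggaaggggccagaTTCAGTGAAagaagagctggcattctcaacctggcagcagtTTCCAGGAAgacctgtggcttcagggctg
Emp1: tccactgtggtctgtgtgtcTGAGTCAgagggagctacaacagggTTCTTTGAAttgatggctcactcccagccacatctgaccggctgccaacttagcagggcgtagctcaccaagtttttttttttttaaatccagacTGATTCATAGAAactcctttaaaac

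The comparison of 9 with 3 months in Trem2-KO mice, which shares no library with the one above, asked whether these genes changed without Trem2. Reactive genes rose here too: 9 of the 21 tested reactive genes rose and 0 fell, against 5.68% of all tested genes called higher and 3.02% called lower. In 14 of the 21 the 9-month libraries all lay above the 3-month ones, against 13.5% of all tested genes. The median log2 fold change was 0.37, against 0.0023 over all tested genes, and became 0.56 without Trem2-KO 3-month replicate 3. The called genes shared by both genotypes numbered 7, Gfap, Vim, Serpina3n, Osmr, Aspg, Ggta1 and Stat3, which is 70% of those called in App-KI and 77.8% of those called in Trem2-KO. The log2 fold changes had the same sign in both genotypes for 20 of the 21 genes. Neither the overlap of calls nor that of signs was calculated over all tested genes.

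Gfap went from 496, 487 and 486 CPM to 1469, 1563 and 1511 CPM in Trem2-KO. The rise was 3.09-fold (log2 fold change 1.63 ± 0.05), and again no library of one age came near the other. Osmr went from 8.15, 7.30 and 10.4 CPM to 19.8, 23.4 and 25.1 CPM (1.40 ± 0.12). Aspg went from 1.51, 1.28 and 1.78 CPM to 5.69, 6.57 and 8.01 CPM (2.15 ± 0.25).

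Vim rose from 28.3, 20.97 and 23.5 CPM to 45.9, 43.0 and 43.7 CPM (0.87 ± 0.10), and Stat3 from 72.8, 74.7 and 77.1 CPM to 109, 114 and 105 CPM (0.54 ± 0.05). Both rises were close in size to those in App-KI. Ggta1 rose from 4.11, 3.03 and 4.77 CPM to 10.2, 9.54 and 10.7 CPM (2.56-fold, standard error 0.19 on the log2 scale). Serpina3n had the smaller rise, from 49.7, 46.6 and 51.6 CPM to 60.4, 63.1 and 58.5 CPM (0.30 ± 0.07).

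Cd44 showed no such separation in Trem2-KO. It stood at 5.35, 6.15 and 7.57 CPM at 3 months and 6.53, 6.13 and 7.27 CPM at 9 months, so that the ages overlapped (0.05 ± 0.17, not called). Socs3 was at 1.30, 2.02 and 2.17 CPM and then 2.60, 2.40 and 3.13 CPM, so that its ages did not overlap (0.53 ± 0.21, not called). Clcf1, at 0.274, 0.440 and 0.337 CPM and then 0.883, 0.479 and 1.17 CPM, had no overlap and was not called either (1.21 ± 0.43). The difference between genotypes in the age change was called by edgeR for neither Socs3 nor Clcf1.

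A pair of reactive genes was called in Trem2-KO and not in App-KI. Emp1, a membrane protein of epithelial and vascular cells, had 2.17 to 3.36 CPM at 3 months and 5.91, 5.99 and 7.05 CPM at 9 months, a rise of 2.18-fold (standard error 0.19 on the log2 scale). In App-KI it stood at 2.78 to 4.16 CPM and 4.001 to 5.42 CPM (0.43 ± 0.19, not called). Tm4sf1, a tetraspanin-like protein best known from endothelium, rose by 0.32 ± 0.09, from 22.3, 19.3 and 19.0 CPM to 26.5, 24.8 and 24.0 CPM. In App-KI it was level, at 17.7 to 20.1 CPM and 18.0 to 20.5 CPM. Of the fibroblast markers 7 of 12 and of the endothelial markers 3 of 10 were called higher with age in Trem2-KO, against 5.68% of all tested genes. In App-KI 1 and 0 were called higher, against 3.95% of all tested genes. The part of these cells in Emp1 and Tm4sf1 was not tested. The call of Tm4sf1 was lost in 5 of 19 alternatives, among them those without Trem2-KO 3-month replicate 2 or 3 and without Trem2-KO 9-month replicate 1 or 2.

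**Figure D3:**
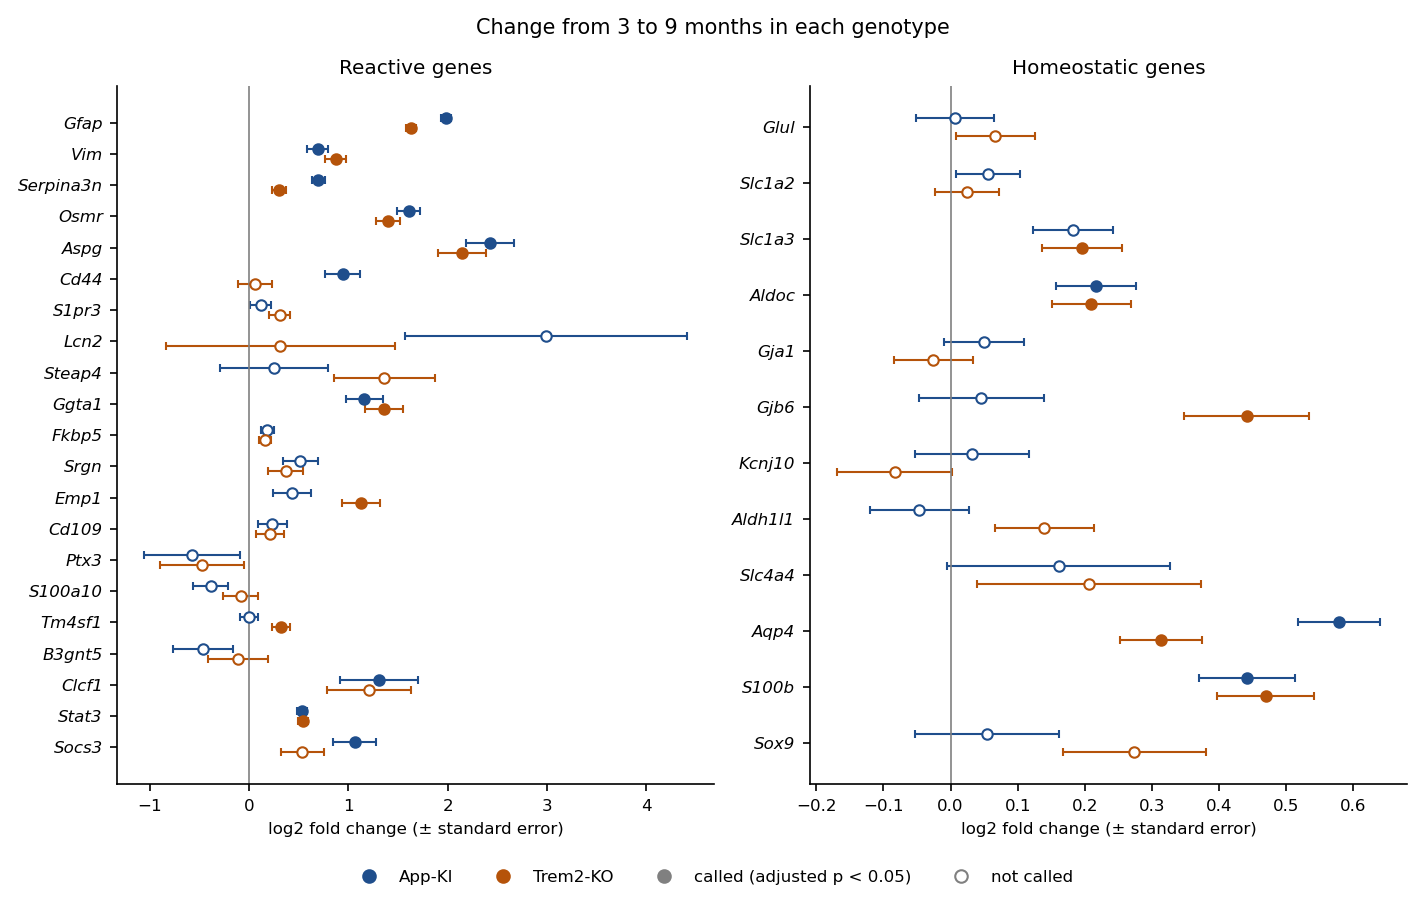
log2 fold change from 3 to 9 months (horizontal axes, ± standard error) of each tested reactive gene (left) and homeostatic gene (right) in App-KI and Trem2-KO, with filled points for genes called by edgeR. Gfap, Osmr and Aspg lie above 1 in both genotypes, while homeostatic genes stay below 0.6.

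The homeostatic genes that changed with age rose, by less than 0.6 on the log2 scale. In App-KI 3 of 12 rose and 0 fell, against 3.95% of all tested genes called higher, and in Trem2-KO 5 of 12 rose and 0 fell, against 5.68%. The median was 0.05 in App-KI and 0.20 in Trem2-KO. With a single library left out, the App-KI median reached 0.0975 without App-KI 9-month replicate 2. It was also over 1.5 times larger without App-KI 3-month replicate 1. Without the libraries low in choroid plexus markers the medians were closer, at 0.12 in App-KI and 0.15 in Trem2-KO. The Trem2-KO median was also 0.15 without Trem2-KO 9-month replicate 3 alone. All 3 called in App-KI were among the 5 in Trem2-KO. Aqp4, the water channel of astrocyte endfeet, stood at 189, 187 and 194 CPM in App-KI at 3 months and 285, 279 and 287 CPM at 9 months (0.58 ± 0.06). In Trem2-KO it went from 214, 182 and 180 CPM to 226, 258 and 232 CPM (0.31 ± 0.06), again with no overlap between ages.

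S100b, a calcium-binding protein that astrocytes also secrete, went from 65.1, 56.8 and 53.9 CPM to 77.4, 83.6 and 78.0 CPM in App-KI (0.44 ± 0.07) and from 59.2, 58.7 and 50.9 CPM to 75.4, 77.8 and 80.5 CPM in Trem2-KO (0.47 ± 0.07). The 9-month libraries were above the 3-month ones in each genotype. Aldoc, the brain form of the glycolytic enzyme aldolase, rose by 0.22 ± 0.06 in App-KI (1078 to 1105 CPM, then 1196 to 1366 CPM) and by 0.21 ± 0.06 in Trem2-KO (945 to 1063 CPM, then 1117 to 1260 CPM). Its calls were lost in 6 and 5 of 19 alternatives, including the one without the 3 libraries low in choroid plexus markers (edgeR adjusted p = 0.0626 and 0.133).

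Gjb6, the gap junction protein connexin 30, rose in Trem2-KO by 0.44 ± 0.09, from 85.6, 92.5 and 91.6 CPM to 128, 103 and 136 CPM. The call was lost without Trem2-KO 3-month replicate 1 (edgeR adjusted p = 0.0556). In App-KI it was at 130, 111 and 109 CPM and then 124, 124 and 115 CPM, without separation. Slc1a3, the glutamate transporter GLAST, had 891 to 1001 CPM and then 1031 to 1150 CPM in Trem2-KO, a rise of 0.20 ± 0.06. That call was near the threshold (edgeR adjusted p = 0.0452) and was lost in 13 of 19 alternatives. Its App-KI values, 970 to 1118 CPM and then 1145 to 1169 CPM, gave 0.18 ± 0.06 (not called). That rise was called with no filter on low counts and with the 2 groups alone. It was also called without App-KI 3-month replicate 1 and without the libraries low in choroid plexus markers.

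The remaining 7 homeostatic genes were called in neither age comparison of the main edgeR fit. For Glul the ages overlapped in both genotypes (0.01 ± 0.06 in App-KI and 0.07 ± 0.06 in Trem2-KO). Slc1a2, the main glutamate transporter GLT-1, stayed between 728 and 825 CPM over all 12 libraries. Gja1, the gap junction protein connexin 43, stayed between 415 and 507 CPM, and Kcnj10, the potassium channel Kir4.1, between 22.6 and 31.2 CPM. Aldh1l1, a folate enzyme used to mark astrocytes, ran from 60.5 to 80.1 CPM. Slc4a4, a bicarbonate cotransporter, ran from 128 to 202 CPM and Sox9, an astrocyte transcription factor, from 67.0 to 99.9 CPM. Without the libraries low in choroid plexus markers, Slc4a4 was called higher with age in both genotypes and Sox9 in Trem2-KO. Slc4a4 was also called in App-KI without App-KI 3-month replicate 1. Sox9 was also called in Trem2-KO with no filter on low counts and without Trem2-KO 9-month replicate 3.

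At 3 months, the comparison of genotypes asked whether the astrocyte genes differed at the stage the submitters describe as the onset of pathology. Among reactive genes edgeR called 0 of 21, with 1 at an unadjusted p under 0.05 and 0 called by DESeq2, and their median was 0.02 against 0.0028 over all tested genes. That median was below 0 without App-KI replicate 2 or Trem2-KO replicate 1 of this age. Over all tested genes 0.167% were called higher and 0.423% lower, and 2151 of 19152 had an unadjusted p under 0.05. The member under 0.05 was Cd44, at 4.73, 3.48 and 4.83 CPM in App-KI and 5.35, 6.15 and 7.57 CPM in Trem2-KO (0.55 ± 0.18, edgeR adjusted p = 0.199). Gfap levels overlapped, at 464 to 525 CPM and 486 to 496 CPM (-0.03 ± 0.05).

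Among homeostatic genes Glul was lower in Trem2-KO at 3 months. It encodes glutamine synthetase, with which astrocytes turn glutamate into glutamine, and stood at 178, 179 and 182 CPM in App-KI and 146, 149 and 151 CPM in Trem2-KO. The groups were far apart relative to their spread, and Glul fell by 0.27 ± 0.06 on the log2 scale, which is -17.3% (edgeR adjusted p = 0.0336). The call was lost in 8 of 19 alternatives: without any 1 of the 6 libraries at 3 months, without App-KI 9-month replicate 2 and without the 3 libraries low in choroid plexus markers. The log2 fold change lay between -0.29 and -0.26 in all 19, and the adjusted p reached 0.125. Gjb6 was likewise lower in all 3 Trem2-KO libraries (-0.38 ± 0.09) but was not called (edgeR adjusted p = 0.0995). It was called by DESeq2. Of the 12 homeostatic genes 10 had a negative value, with a median of -0.10 that became -0.0547 without App-KI 3-month replicate 1, and 4 had no overlap with App-KI, against 8.94% of all tested genes lower without overlap.

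At 9 months, the comparison of genotypes asked how the reactive state differed without Trem2. Gfap and Serpina3n were lower in Trem2-KO and Tm4sf1 was higher, so that 2 of 21 reactive genes fell and 1 rose. Over all tested genes 1.39% were called lower and 0.684% higher. The median of the reactive genes was -0.02 (0.0066 over all tested genes), with 11 values below 0 and 10 above. It was above 0 (0.04) without Trem2-KO 9-month replicate 2 and reached -0.11 without replicate 3.

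Gfap was lower in every Trem2-KO library (1469 to 1563 CPM) than in every App-KI library (1893 to 2045 CPM). The mean was 1514 ± 47.3 CPM (SD, n = 3) against 1981 ± 79.1 CPM (n = 3), and the level fell by 0.39 ± 0.05 on the log2 scale, which is -23.6% (edgeR adjusted p = 0.000116). It was called in each of 19 alternatives, between -0.42 and -0.36. Serpina3n, at 60.7 ± 2.29 CPM against 74.5 ± 4.195 CPM (SD, n = 3 each), fell by 0.30 ± 0.07 with no overlap (edgeR adjusted p = 0.0191). Leaving out App-KI 9-month replicate 2 or Trem2-KO 9-month replicate 1 ended the call, as did leaving out the 3 libraries low in choroid plexus markers (-0.23, edgeR adjusted p = 0.123). Of the 12 microglial markers 11 were called lower in this comparison, against 1.39% of all tested genes, with a median of -0.84.

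Tm4sf1 was at 18.0, 20.5 and 19.1 CPM in App-KI and 26.5, 24.8 and 24.0 CPM in Trem2-KO. It rose by 0.39 ± 0.09 without overlap. The call was lost in 5 of 19 alternatives: without App-KI replicate 1 or 3, without Trem2-KO replicate 1 or 2 (all at 9 months) and with the 2 groups alone. Emp1 had no overlap either (4.001 to 5.42 CPM against 5.91 to 7.05 CPM) but was not called (0.45 ± 0.18, edgeR adjusted p = 0.275). The endothelial markers had 2 of 10 called higher and the fibroblast markers 0 of 12 by edgeR, against 0.684% of all tested genes. Of the 12 fibroblast markers 10 were at an unadjusted p under 0.05, against 2613 of 19152 tested genes. The median of the 12 was 1.08.

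Osmr, Aspg, Vim, Stat3 and Ggta1 were not called between genotypes at 9 months. Osmr stood at 24.3 to 25.5 CPM in App-KI and 19.8 to 25.1 CPM in Trem2-KO (-0.13 ± 0.11), and Stat3 at 110 to 118 CPM and 105 to 114 CPM (-0.06 ± 0.05). Vim was at 36.1 to 46.7 CPM and 43.0 to 45.9 CPM (0.08 ± 0.10). Socs3 was lower in all 3 Trem2-KO libraries, at 2.40 to 3.13 CPM against 3.21 to 3.48 CPM, without a call (-0.30 ± 0.20).

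Of the homeostatic genes Aqp4 was called lower at 9 months. It stood at 285, 279 and 287 CPM in App-KI and 226, 258 and 232 CPM in Trem2-KO, and fell by 0.25 ± 0.06 without overlap (edgeR adjusted p = 0.0334). The call was lost in 6 of 19 alternatives: without App-KI 9-month replicate 1, 2 or 3, without Trem2-KO 9-month replicate 1 or 3 and without the libraries low in choroid plexus markers. Glul was lower in all 3 Trem2-KO libraries, as it was at 3 months, at 170, 139 and 157 CPM against 188, 180 and 173 CPM. It was not called by edgeR (-0.21 ± 0.06, adjusted p = 0.0658) and was called by DESeq2. The other 10 homeostatic genes were not called, and the median of the 12 was -0.08, or -0.13 without Trem2-KO 9-month replicate 3.

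**Figure D4:**
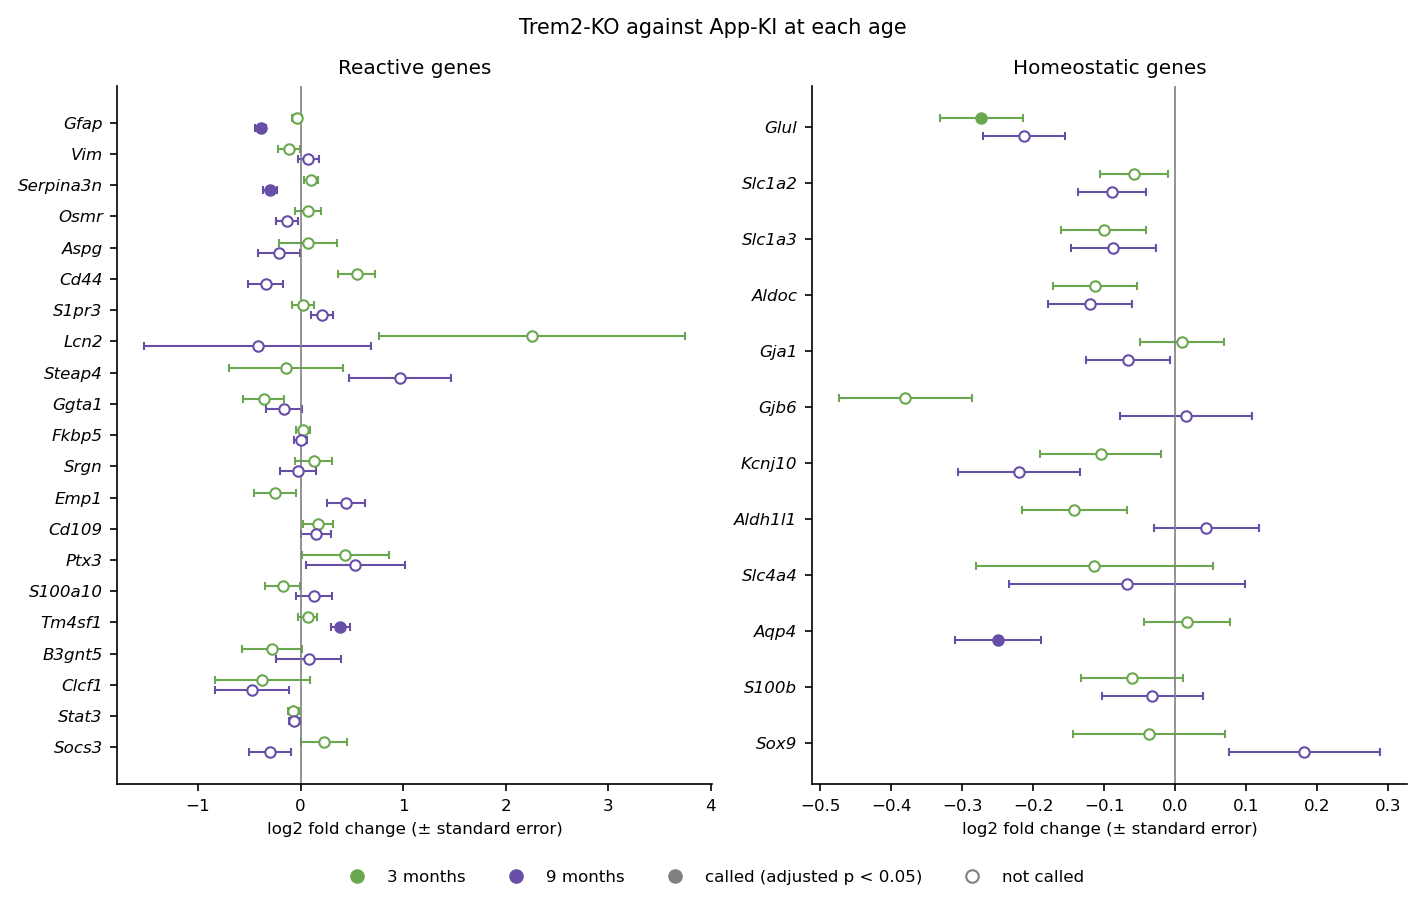
log2 fold change of Trem2-KO against App-KI (horizontal axes, ± standard error) at 3 and at 9 months for each tested reactive gene (left) and homeostatic gene (right), with filled points for genes called by edgeR. At 3 months Glul is the single filled point, and at 9 months Gfap, Serpina3n and Aqp4 are below 0 and Tm4sf1 above.

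The interaction of age and genotype tested whether the change from 3 to 9 months differed between genotypes. Among the 33 tested genes it was called for Gfap, whose rise was smaller in Trem2-KO by 0.35 ± 0.07 on the log2 scale (-0.35, edgeR adjusted p = 0.0409). Over all tested genes 0.0574% were called higher and 0.209% lower, and 1156 of 19152 had an unadjusted p under 0.05. The Gfap call was lost in 10 of 18 alternatives, with 8 of the 12 libraries left out singly, with library size only and without the libraries low in choroid plexus markers, with values from -0.39 to -0.30 and adjusted p up to 0.175 over all 18. Among other reactive genes Serpina3n (-0.40 ± 0.09) and Cd44 (-0.89 ± 0.25) had values on the same side, and Emp1 (0.69 ± 0.27) and Tm4sf1 (0.32 ± 0.13) on the other side, each at an unadjusted p under 0.05 and not called by edgeR. DESeq2 called Serpina3n as well as Gfap, and edgeR with no filter on low counts called Serpina3n, Cd44 and the homeostatic gene Gjb6 besides Gfap. With the filter, homeostatic genes had 0 calls by edgeR, 2 at an unadjusted p under 0.05 (Aqp4 at -0.27 ± 0.09 and Gjb6 at 0.40 ± 0.13) and 0 by DESeq2. Gjb6 was also called without Trem2-KO 9-month replicate 2. The age changes of Osmr, Aspg, Vim and Stat3 differed between genotypes by -0.21 ± 0.17, -0.28 ± 0.35, 0.18 ± 0.15 and 0.01 ± 0.07, none of them called.

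Each library can also be described by the mean of either gene group. The mean log2 CPM of the 21 reactive genes ran at 3 months from 2.702 to 2.90 in App-KI and from 2.76 to 3.01 in Trem2-KO. At 9 months it ran from 3.40 to 3.62 and from 3.45 to 3.65, so that the ages did not overlap and the genotypes did. The mean of the 12 homeostatic genes ran from 7.52 to 7.65 and from 7.43 to 7.49 at 3 months, and from 7.69 to 7.76 and from 7.62 to 7.69 at 9 months, so that its ages did not overlap within a genotype either. Unlike the reactive mean, it did not overlap between genotypes: Trem2-KO ended at 7.485 and App-KI began at 7.516 at 3 months, and at 7.688 and 7.693 at 9 months. The gap between both means was -4.78 ± 0.03 (SD, n = 3) in App-KI and -4.58 ± 0.15 in Trem2-KO at 3 months, and -4.22 ± 0.11 and -4.12 ± 0.07 at 9 months. These means weight a gene of few counts, such as Lcn2, like Gfap and are given as a description.

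**Figure D5:**
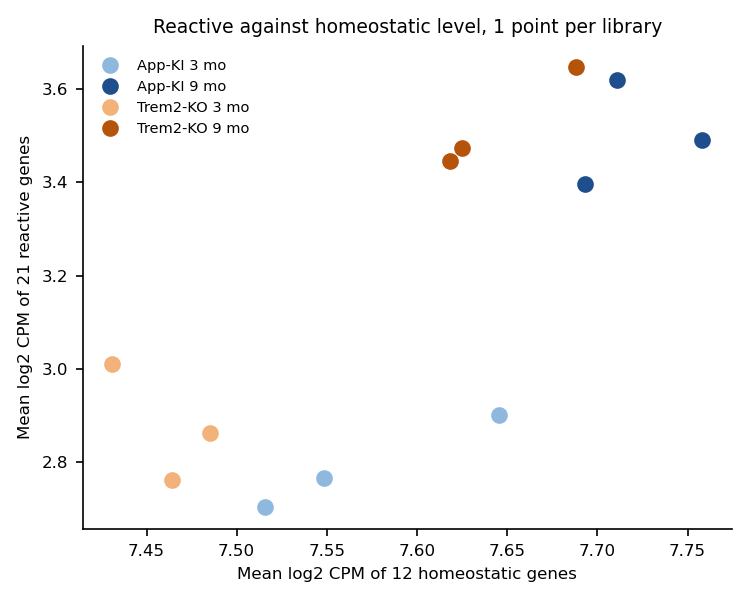
Mean log2 CPM of the 21 tested reactive genes (vertical axis) against that of the 12 homeostatic genes (horizontal axis), 1 point per library coloured by group; neither axis starts at 0. The 6 libraries at 9 months lie at 3.40 or above on the vertical axis and the 6 at 3 months at 3.01 or below.

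The remaining reactive genes gave no call in any comparison of the main edgeR fit, and several had few counts. Lcn2, the secreted iron-siderophore binder lipocalin 2, spread widely within groups: its counts were 14, 3 and 5 in App-KI at 3 months, 53, 94 and 6 in App-KI at 9 months, 6, 8 and 86 in Trem2-KO at 3 months and 16, 21 and 89 in Trem2-KO at 9 months. Timp1, an inhibitor of matrix metalloproteases, did not pass the filter, with 2 to 5 counts in App-KI at 3 months, 7 to 19 in App-KI at 9 months, 2 to 10 in Trem2-KO at 3 months and 7 to 11 in Trem2-KO at 9 months. It was called higher with age in App-KI when no filter on low counts was used. The filter kept it, and it was called there, without App-KI 3-month replicate 1 or App-KI 9-month replicate 1. The same held with any single Trem2-KO library left out. Leaving out any other App-KI library gave no call. Ptx3, a pentraxin, B3gnt5, a glycolipid synthesis enzyme, and Steap4, a metalloreductase, stood at 0.106 to 1.51, 0.927 to 2.32 and 0.530 to 4.55 CPM over the 12 libraries. Steap4 was called higher with age in Trem2-KO by DESeq2 and not by the main edgeR fit (adjusted p = 0.135). Other edgeR fits also called it: with no filter on low counts and with the 2 groups alone. So did those without App-KI 3-month replicate 1 or 2 and without the libraries low in choroid plexus markers.

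Among those with more counts, Fkbp5, a co-chaperone of the glucocorticoid receptor, stayed between 99.2 and 132 CPM. S1pr3, a receptor for sphingosine-1-phosphate, ran from 14.58 to 20.3 CPM and S100a10, a partner of annexin A2, from 6.09 to 11.5 CPM. Srgn, the proteoglycan serglycin of blood and vascular cells, ran from 5.31 to 11.1 CPM and Cd109, a membrane protein that binds TGF-β, from 5.31 to 8.72 CPM. Of 18 stress hormone targets listed beside Fkbp5, 1 rose with age in App-KI, Plin4 (1.85 ± 0.29), which encodes a lipid droplet protein, against 3.95% of all tested genes. In Trem2-KO 3 rose and 1 fell, against 5.68% and 3.02% of all tested genes. Between genotypes edgeR called 0 of the 18 at each age, with 4 at an unadjusted p under 0.05 each time. Over all 19152 tested genes 2151 were under 0.05 at 3 months and 2613 at 9 months.

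A second list held 30 reactive astrocyte genes outside the 34. Of 29 tested, 9 rose and 1 fell with age in App-KI, against 3.95% and 2.71% of all tested genes. In Trem2-KO 16 rose and 1 fell, against 5.68% and 3.02%. C4b, a complement protein whose reads may be divided with C4a, rose by 2.87 ± 0.18 in App-KI and 3.05 ± 0.19 in Trem2-KO, and C3, the central complement protein, rose by 2.47 ± 0.40 in Trem2-KO. Il33, an alarm cytokine, rose in both (0.71 in App-KI and 0.84 ± 0.09 in Trem2-KO), and the matrix protein gene Tnc fell in both (-0.63 and -0.78). Between genotypes 0 of 29 were called by edgeR at 3 months, with 6 at an unadjusted p under 0.05, against 2151 of 19152 tested genes. At 9 months Cd14 (-1.35 ± 0.15), the lipopolysaccharide co-receptor, and the cathepsin gene Ctsb (-0.26 ± 0.05), both also expressed by microglia, fell. Serping1 (0.91 ± 0.19), the complement C1 inhibitor, Cp (0.82 ± 0.17), the copper protein ceruloplasmin, and Sphk1 (0.92 ± 0.24), a sphingosine kinase, rose. Of the 29 genes 2 fell and 3 rose at 9 months, against 1.39% and 0.684% of all tested genes. In that comparison edgeR called 0 of the 12 fibroblast markers, whose median log2 fold change was 1.08. From 3 to 9 months their median was 1.09 in Trem2-KO (7 called higher, against 5.68% of all tested genes). In App-KI it was -0.03 (1 called higher, against 3.95%). The part of fibroblasts in the rises of this second list was not tested. The interaction was called for Cd14 alone of the 29 (-1.62 ± 0.24), against 0.209% of all tested genes called lower.

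A second list of 30 homeostatic astrocyte genes could be tested in full. With age 3 rose and 2 fell in App-KI, where Mlc1, an endfoot membrane protein, rose by 0.26 ± 0.05 and the claudin gene Cldn10 fell by 0.39 ± 0.07. Over all tested genes 3.95% rose and 2.71% fell there. In Trem2-KO 5 rose and 0 fell, against 5.68% and 3.02% of all tested genes, among them the sodium pump subunit gene Atp1b2 (0.28 ± 0.05). Between genotypes Dio2, the enzyme that activates thyroid hormone in astrocytes, was lower in Trem2-KO at 3 months (-0.48 ± 0.07) and at 9 months (-0.33 ± 0.07). Gldc, a glycine-degrading enzyme, fell at 3 months (-0.30 ± 0.07). At 9 months Ppp1r3c, a glycogen regulator, fell (-0.31 ± 0.08) and Id3, a transcriptional inhibitor, rose (0.50 ± 0.09). No other gene of the 30 was called between genotypes. Over all tested genes 0.423% were called lower at 3 months, and 1.39% lower and 0.684% higher at 9 months. In the list of 18 genes for glutamine, glutamate and potassium handling, which shares Atp1b2 with this one, edgeR called 0 between genotypes at either age. Of the 18, 3 at 3 months and 2 at 9 months had an unadjusted p under 0.05, against 2151 and 2613 of 19152 tested genes.

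Levels of different genes were compared per kilobase of exon, with lengths from an annotation of another build, so their order is approximate. In App-KI at 3 months the order was led by Aldoc (368 ± 5.14 CPM per kilobase, SD, n = 3), Slc1a3 (232 ± 19.2), Gja1 (138 ± 1.03) and Gfap (123 ± 7.98). Glul (64.3 ± 0.658) and Slc1a2 (64.2 ± 0.605) did not differ beyond their spread. At 9 months Gfap ranked 1 of 34 in App-KI and 2 of 34 in Trem2-KO, having ranked 4 of 34 at 3 months in both. In Trem2-KO at 9 months Gfap (371.9 ± 11.56) and Aldoc (393.7 ± 25.95) did not differ beyond their spread. The next reactive gene, Serpina3n, ranked 10 in all 4 groups.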

How the data were processed

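The authors deposited raw read counts per gene as whole numbers, not normalised. GRCm39 is the build in the submitters' processing notes, which list, without roles, featureCounts 2.0.3, STAR 2.7.10a, DESeq2 1.36.0 and R 4.2.0. Strand setting and annotation release are not given there. Libraries were made with a SMART-Seq mRNA kit, per the labels. Symbols came from GENCODE M21 (GRCm38), which matched 52073 of 56980 identifiers. Genes were kept by filterByExpr (minimum count 10, minimum total 15). All genes were fitted in edgeR 4.0.16 (R 4.3.3) and tested by its robust quasi-likelihood test on TMM-scaled libraries, with 1 term per group over 12 libraries and 8 residual degrees of freedom, adjusted by Benjamini-Hochberg over 19152 genes and called under 0.05. It was tested on simulated data beforehand. Printed log2 fold changes are edgeR's moderated values. Standard errors come from the F statistic and the unmoderated change. Each named mouse is 1 replicate. Replicate pairs differed by more than sampling noise (chi-square per degree of freedom 3.06 to 17.2), so each counted separately. Alternatives were other scalings, DESeq2 1.42.0, other filters, fits of 2 groups and each library left out. Members and lists were chosen with earlier results of these data known. All 34 members were accounted for. Library values are given for those called, and of other lists mainly the 4 smallest p-values per comparison are named. Some called genes of the other lists are not reported here.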

Additional observations from a re-analysis of the deposited data

Results flagged for a closer look

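The interaction of age and genotype was called by edgeR for Gfap and for Cd14. Gfap, at 501 ± 32.5 and 1981 ± 79.1 CPM in App-KI and 490 ± 5.41 and 1514 ± 47.3 CPM in Trem2-KO (3 and 9 months, SD, n = 3), rose less in Trem2-KO by a log2 difference of -0.35 (edgeR adjusted p = 0.0409). That call was lost in 10 of 18 alternatives, with adjusted p up to 0.175, among them those leaving out singly 8 of the 12 libraries. Cd14, at 2.48 ± 0.577 and 11.97 ± 0.830 CPM in App-KI and 2.97 ± 0.254 and 4.70 ± 0.540 CPM in Trem2-KO, rose less by -1.62 (edgeR adjusted p = 0.00164). Microglial markers moved the same way, with 10 of 12 called lower for the interaction, against 0.209% of all tested genes. The part of microglia in both results was not tested.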

How the results depend on the processing

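Over 626 recalculations of 33 called gene results, 552 kept their direction and their call, 74 kept the direction without the call and 0 reversed. The age changes of Gfap, Osmr, Aspg, Vim, Ggta1, Serpina3n, Stat3, S100b and Aqp4 were called in each of 19 alternatives in each genotype. Reactive genes called with age numbered 10 in App-KI (9 to 12 over all alternatives) and 9 in Trem2-KO (8 to 10). Reactive genes called at 9 months between genotypes numbered 3, and 1 to 3 with a library left out. For the interaction 1 reactive gene was called, against 0 to 1 with a library left out, 0 by library size only, 2 by DESeq2, 3 with no filter and 0 without the 3 libraries low in choroid plexus markers, an alternative chosen after seeing the data. Homeostatic genes called numbered 1 at 3 months (0 to 2 with a library left out, 2 by DESeq2, with no filter and with the 2 groups alone, 0 without the low choroid libraries), 1 at 9 months (0 to 1, 2 by DESeq2 and with no filter, 0 without the low choroid libraries), 5 with age in Trem2-KO (3 to 5, and 3 with the 2 groups alone) and 0 for the interaction (0 to 1, and 1 with no filter). All tested genes called numbered 113 at 3 months (26 to 154 with a library left out, 236 by DESeq2, 347 with no filter, 218 with the 2 groups alone) and 398 at 9 months (175 to 556, 831 with no filter). With age they numbered 1276 in App-KI (788 to 1523, and 826 without the low choroid libraries) and 1667 in Trem2-KO (769 to 1920), and 51 for the interaction (29 to 76, 97 by DESeq2, 187 with no filter). The cause of these shifts was not tested, beyond the smaller number of libraries. No paired analysis was possible because the labels give no replicate numbers shared between groups. Genes under about 1 CPM rest on few counts.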
